A study of Mus musculus with 6 samples.

Results

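The tripartite motif (TRIM) family was represented by 67 gene rows, all rows whose symbol begins with Trim and a number, of 24421 rows in all. Their RNA was read in mouse colon, in 3 samples from a dextran sulfate sodium (DSS) model of chronic colitis and in 3 control samples. DSS is a polymer that damages the lining of the colon. Every sample was labelled as C57BL/6 and with an age of 7 weeks, in a wording that may also mean older, and every sample as colon tissue. No other allele or agent is named. Levels are in FPKM (read fragments per gene length and per mapped reads), as the authors deposited them. Whether replicates are different mice is not stated, and p-values therefore cover only the spread among these samples, which may be technical. An SD over 3 samples follows each ±, except where SE is written.

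TRIM proteins typically carry a RING finger, one or more B-boxes and a coiled coil, and some members lack the RING finger. Most are ubiquitin ligases, in which the RING finger recruits a ubiquitin-loaded conjugating enzyme and the carboxy-terminal domain picks the substrate. Many are induced by interferon, restrict viruses or set the strength of signalling from nucleic acid sensors and Toll-like receptors, while others silence chromatin, bind microtubules or act in muscle. In the gut, Trim31 and Trim40 are known as genes of the intestinal epithelium.

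Few TRIM genes passed the test in DSS colitis. Trim12a rose and Trim16 fell, and these 2 (4.88%) were the TRIM genes that passed the test among the 41 that reached 1 FPKM in at least 3 samples (limma on log2(FPKM + 1), Benjamini-Hochberg adjusted p under 0.05 over 12348 genes). Over all tested genes 8.9% passed, 6.34% higher and 2.56% lower in DSS. At an unadjusted p under 0.05, 6 TRIM genes were higher and 2 lower, 19.5% of those tested, against 28.3% of all tested genes. The median log2 fold change was 0.09 over the 41 TRIM genes and 0.13 over all tested genes, and the median size of the change without its sign was 0.27 and 0.30. The difference between the TRIM genes and all tested genes was not tested. The TRIM median was the higher one without DSS 1 (0.14 against 0.12), DSS 2 (0.20 against 0.18) or control 3 (0.22 against 0.14). With no filter on low values, the median over all 19058 genes was 0.06. The TRIM value there, 0.09, still covered only the same 41 genes, so those medians are not comparable. Under 3 other scalings of the samples the median of all genes moved by about 0.13 to near 0 and that of the TRIM genes to between -0.01 and 0.02. Among all called genes the share higher in DSS was then 50.8% to 53.8%, in place of 71.2%.

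Trim31 was the member with the highest mean level in both groups, with 11.4% to 16.5% of the summed TRIM FPKM in DSS colon and 19.1% to 22.3% in control colon. By mean level the next members were Trim40, Trim12a, Trim15 and Trim2 in DSS colon, and Trim16, Trim15, Trim40 and Trim2 in control colon. Trim12a ranked 3 in DSS colon and 8 in control colon, and Trim16 ranked 6 in DSS colon and 2 in control colon. The order among Trim15, Trim40 and Trim2 in control colon does not stand out from the spread, since Trim15 alone ran from 4.31 to 61.3 FPKM there. The family summed to 434.3 to 457.6 FPKM in DSS samples and 382.1 to 479.2 FPKM in control samples, ranges that overlap. Of the 67 rows, 39 to 41 reached 1 FPKM in each sample.

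**Figure D1:**
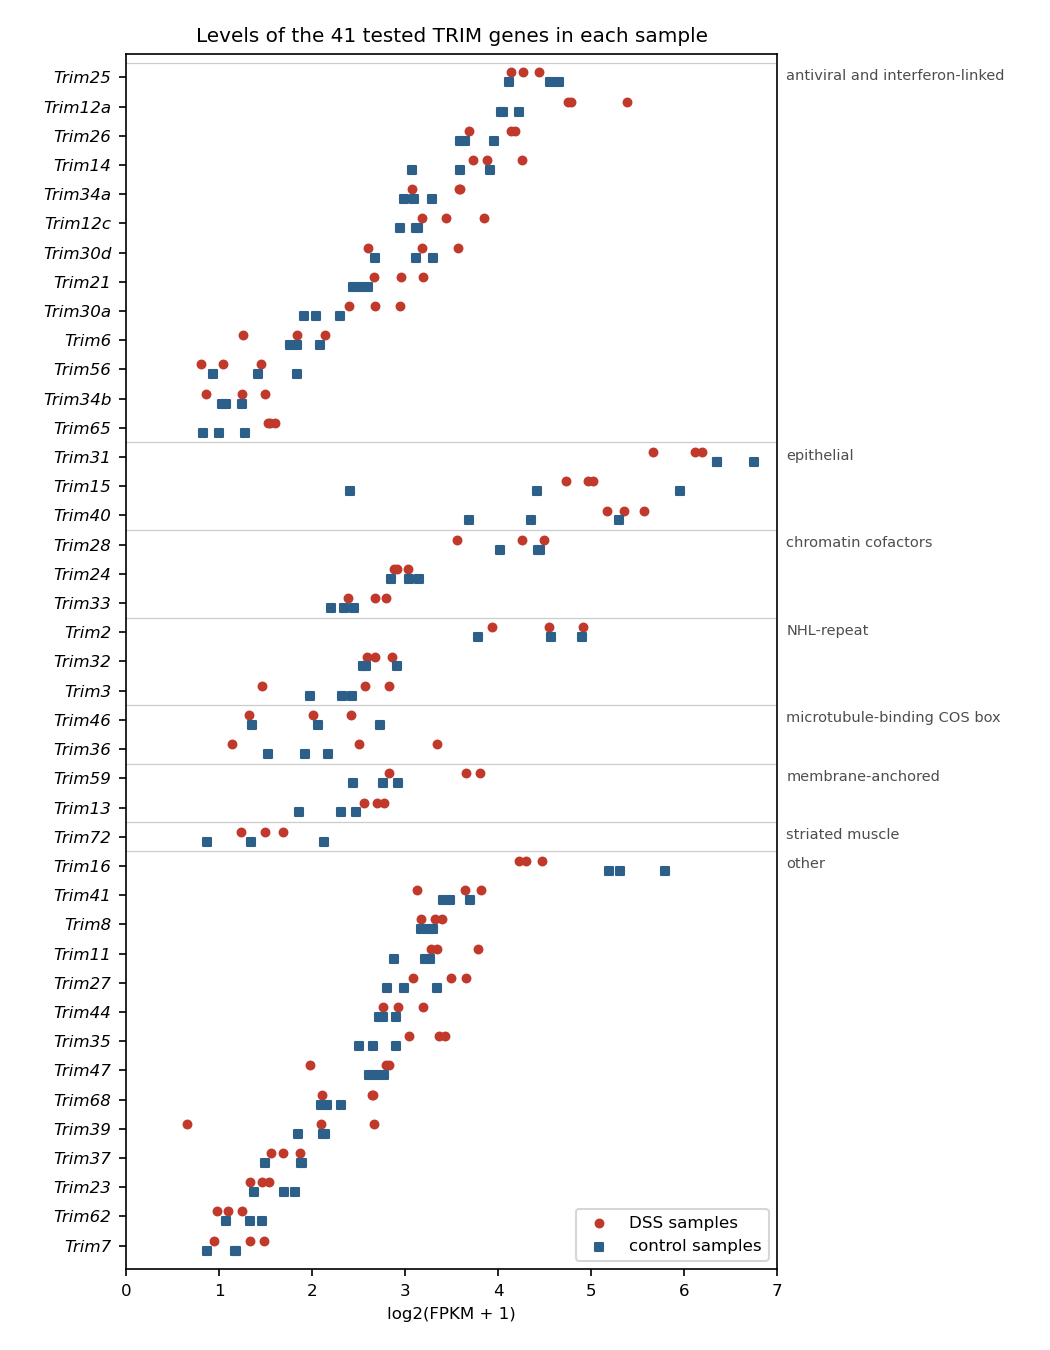
Level of each of the 41 tested TRIM genes in each sample, as log2(FPKM + 1) on the horizontal axis, with DSS samples as circles above control samples as squares and the genes grouped by class. The circles and squares of Trim12a, Trim65, Trim35 and Trim16 stand apart, among the 10 genes whose groups do not overlap.

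The samples differ in ways that touch these values. Depth is unknown, since the files used here give FPKM without counts. Of the genes below 0.1 FPKM in both samples of a pair, 1.22% to 3.33% shared the commonest ratio, within 0.005 on the log2 scale. The ratio of a median gene was shared by 0.304% to 0.671%, less than the commonest one in every pair. Whether the commonest ratios mark steps worth 1 read was not tested. DSS 2 was the lowest DSS sample for 24 of the 41 TRIM genes, and for 49.9% of all tested genes. Control 1 was the lowest control sample for 22 of the 41, and for 51.7% of all tested genes. Neutrophil markers summed to 4100 to 6980 FPKM in DSS colon, against 7.57 to 30.5 FPKM in control samples, and all 8 passed the test as higher. Of these, Csf3r, Cxcr2, Mmp8, Mmp9 and Ngp stayed below 1 FPKM in every control sample and so passed the filter through the DSS samples alone, and Ngp and Mmp8 were at 0 in some control samples. The 8 T cell and NK markers summed to 47.3 to 177.9 FPKM in DSS colon, against 5.41 to 8.63 FPKM in control samples. Gzma alone had 116.8 FPKM in DSS 2. Of 5 tested markers 4 rose, of which Nkg7 passed the filter through the DSS samples alone and Gzmb kept its call in 8 of 15 alternatives. Cd2 did not pass (log2 fold change -0.16, limma adjusted p = 0.829), and Cd3e, Cd4 and Cd8a were not tested. Macrophage and monocyte markers summed to 720.6 to 967.6 FPKM in DSS colon, against 507.9 to 633.5 FPKM in control samples, and 2 of 10 rose. Epithelial markers summed to 5174 to 6662 FPKM in DSS colon, against 9072 to 12770 FPKM in control samples, and 2 of 9 fell. Smooth muscle markers summed to 1279 to 3562 FPKM in DSS colon, against 3821 to 4805 FPKM in control samples, and 1 of 9, Tpm2, fell. B cell and plasma cell markers summed to 131.5 to 2640 FPKM in DSS colon, against 522.6 to 731.4 FPKM in control samples, and 0 of 6 passed by limma. No marker of these lists was at 0 in every sample. In a piece of tissue, more or fewer cells of a type and more or less RNA per cell cannot be told apart. The part of these cell types in the TRIM results was not tested.

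A group of related members lies on one stretch of chromosome 7, in the order Trim6, Trim34a, Trim12a, Trim34b, Trim12c, Trim30b, Trim30a and Trim30d. In mouse, Trim12a and Trim12c are relatives of the primate retrovirus restriction factor TRIM5, Trim30a restrains Toll-like receptor signalling through the adaptors Tab2 and Tab3, and Trim34a is interferon-inducible. Trim12a, at chromosome 7, 104299894 to 104315466 on the minus strand of GRCm38, had 26.6, 40.9 and 26.0 FPKM in DSS 1, 2 and 3, against 15.6, 17.6 and 15.3 FPKM in control 1, 2 and 3. Every DSS sample lay above every control sample, with DSS 2 the highest. Trim12a rose by a log2 fold change of 0.88 ± 0.20 SE (limma, adjusted p = 0.0399). The call was lost without DSS 3 (limma, adjusted p = 0.0704), without control 1 (0.109), control 2 (0.107) or control 3 (0.139), with no filter on low values (0.0691) and under each of 3 other scalings (0.0797 to 0.099), while the log2 fold change stayed between 0.67 and 0.99.

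No tested neighbour of Trim12a passed the test. Trim12c had 8.07, 13.4 and 9.88 FPKM in DSS 1, 2 and 3, against 6.69, 7.71 and 7.82 FPKM in control 1, 2 and 3 (log2 fold change 0.42 ± 0.20 SE, limma adjusted p = 0.217). Trim30a had 6.69, 4.27 and 5.42 FPKM in DSS 1, 2 and 3, against 3.94, 2.78 and 3.11 FPKM in control 1, 2 and 3 (log2 fold change 0.59 ± 0.20 SE, limma adjusted p = 0.115). In both genes the groups did not overlap, but DSS 2 was the highest DSS sample for Trim12c and the lowest for Trim30a. Trim34a had 10.9, 11.1 and 7.44 FPKM in DSS 1, 2 and 3, against 6.93, 8.77 and 7.54 FPKM in control 1, 2 and 3 (limma adjusted p = 0.36). Trim30d had 10.9, 5.08 and 8.09 FPKM in DSS 1, 2 and 3, against 5.38, 7.70 and 8.86 FPKM in control 1, 2 and 3 (limma adjusted p = 0.871). In Trim34a and Trim30d the groups overlapped. The intervals at 95% of the log2 fold change ran from -0.16 to 0.75 for Trim34a and from -0.57 to 0.75 for Trim30d. Trim34b averaged 1.34 ± 0.504 FPKM in DSS colon, against 1.17 ± 0.175 FPKM in control colon. Trim6, which in human cells makes ubiquitin chains that activate the kinase IKK epsilon, averaged 2.45 ± 1.01 FPKM in DSS colon, against 2.73 ± 0.441 FPKM in control colon. The groups of both genes overlapped. Trim12a and Trim12c share 981 aligned bases at 96.5% identity, Trim30a and Trim30d 301 bases at 97.7%, and Trim34a and Trim34b 1827 bases at 98.7%, so how the authors' counting split reads between them is uncertain. Trim5, which has no row among the members, matches Trim12a over 953 bases at 97.0% and Trim12c over 2458 bases at 95%, and reads of Trim5 could have been counted to either.

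Trim30b, on the same stretch, stayed below the level needed for testing and was higher in the DSS samples. It had 0.993, 0.989 and 0.638 FPKM in DSS 1, 2 and 3, against 0.0300, 0.0458 and 0.0533 FPKM in control 1, 2 and 3, a ratio of means of 20.3. All 3 DSS samples lay above all 3 control samples, at levels near or below 1 FPKM in DSS and near 0 in control colon. With a filter of 0.1 FPKM in place of 1 FPKM it was called higher (log2 fold change of FPKM + 1 of 0.84 ± 0.12 SE, limma adjusted p = 0.00928), but it passed that filter through the DSS samples alone. It shares 309 bases at 96.4% identity with Gm15133. The related pseudogene Trim30e-ps1 went the other way, at 0.103, 0.166 and 0.128 FPKM in DSS 1, 2 and 3, against 0.381, 0.564 and 0.190 FPKM in control 1, 2 and 3. With the filter of 0.1 FPKM Trim30e-ps1 was not called (limma adjusted p = 0.197).

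**Figure D2:**
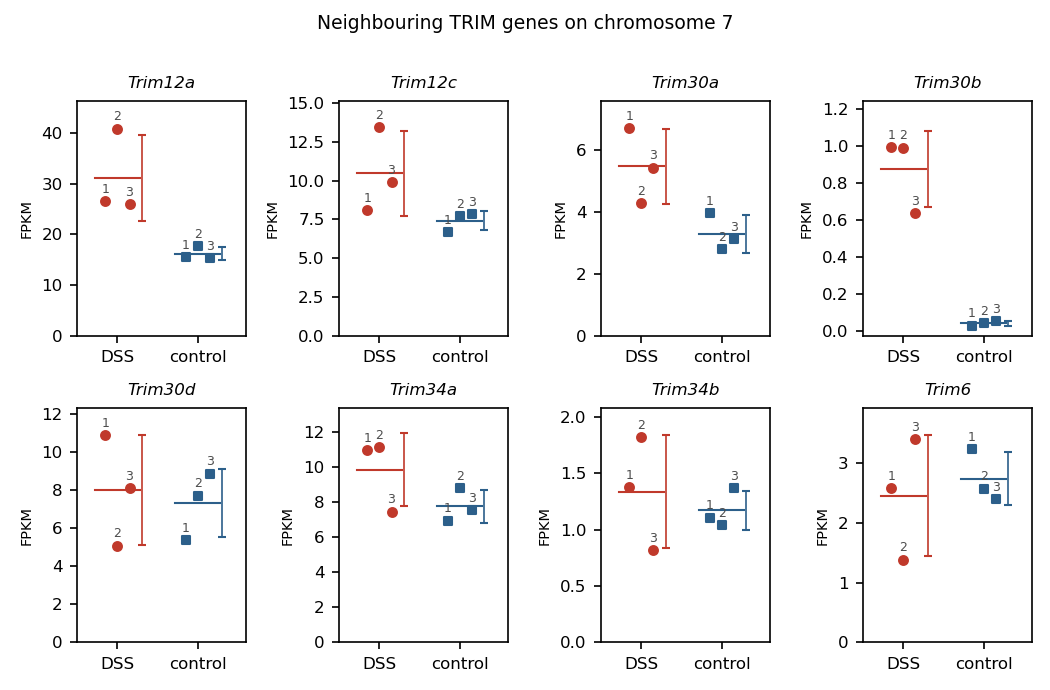
FPKM of 8 neighbouring TRIM genes on chromosome 7, DSS samples as circles at left and control samples as squares at right, numbered by replicate, with the group mean as a line and 1 SD as a bar. Trim12a, Trim12c, Trim30a and Trim30b show DSS samples above all control samples, and Trim30d, Trim34a, Trim34b and Trim6 show groups that overlap.

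Several promoters of this group hold the core of the interferon-stimulated response element (ISRE), the sequence bound by interferon regulatory factors. It was searched as GAAANNGAAA on both strands in 300 bases around each RefSeq start (GRCm38.p6), of which 250 lie before and 50 after it. The letters occur in 9 of 65 TRIM promoters (13.8%), belonging to 8 of 51 TRIM genes with an entry, and in 3.44% of all 32851 promoters. The genes are Trim2, Trim12a, Trim12c, Trim21, Trim26, Trim30a, Trim30d and Trim34a, and since several are copies of each other their promoters are not independent. The stretches from 70 bases before to 30 after the start are shown for the 6 genes that hold the match there, because they include the called gene Trim12a and Trim12c, Trim30a and Trim21, whose groups did not overlap. Capitals mark the match, and each runs 5′ to 3′ along the gene's own strand.
Trim12a, chr7:104315466-104315565, minus strand: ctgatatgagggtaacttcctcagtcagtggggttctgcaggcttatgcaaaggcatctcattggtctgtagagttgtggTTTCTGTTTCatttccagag
Trim12c, chr7:104353320-104353419, minus strand: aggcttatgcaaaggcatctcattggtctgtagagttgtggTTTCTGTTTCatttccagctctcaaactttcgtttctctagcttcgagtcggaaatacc
Trim30a, chr7:104465164-104465263, minus strand: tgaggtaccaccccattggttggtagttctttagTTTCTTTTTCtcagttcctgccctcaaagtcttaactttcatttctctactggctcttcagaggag
Trim30d, chr7:104507820-104507919, minus strand: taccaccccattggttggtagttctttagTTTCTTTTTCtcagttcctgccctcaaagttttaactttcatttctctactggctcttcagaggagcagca
Trim34a, chr7:104244387-104244486, plus strand: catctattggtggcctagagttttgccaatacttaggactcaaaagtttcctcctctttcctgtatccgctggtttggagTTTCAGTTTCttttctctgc
Trim21, chr7:102565453-102565552, minus strand: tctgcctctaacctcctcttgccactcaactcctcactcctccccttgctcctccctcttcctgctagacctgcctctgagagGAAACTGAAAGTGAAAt
Trim12a and Trim12c carry the same 10 letters, TTTCTGTTTC, and Trim30a, from the first of 2 listed starts, and Trim30d also share theirs, TTTCTTTTTC. Trim21 holds 2 overlapping matches on the forward strand. Trim2, Trim26, Trim30d and Trim34a hold the match and had overlapping groups. Trim30b, whose groups were apart, does not hold these letters in its window. The letters of the interferon-gamma activated site (GAS), TTCNNNGAA, were found in 9.23% of TRIM and 8.3% of all promoters, and those of the antioxidant response element, TGACNNNGC, in 13.8% and 12.4%. A match is a description of these letters, and no binding was measured.

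Trim21, the cytosolic antibody receptor that sends antibody-coated particles to the proteasome, had 6.74, 8.16 and 5.35 FPKM in DSS 1, 2 and 3, against 4.44, 5.09 and 4.70 FPKM in control 1, 2 and 3. The groups did not overlap but the lowest DSS and highest control samples nearly touched (log2 fold change 0.42 ± 0.18 SE, limma adjusted p = 0.187). Among the sensor partners, Trim65, a ligase of the RNA sensor MDA5, had 1.92, 2.04 and 1.88 FPKM in DSS 1, 2 and 3, against 0.776, 1.43 and 1.0 FPKM in control 1, 2 and 3 (log2 fold change 0.52 ± 0.18 SE, limma adjusted p = 0.109). The groups were apart, at levels close to the testing limit, and its exons overlap those of Trim47 on the same strand. Trim25, which ubiquitinates the RNA sensor RIG-I, went the other way without separation, at 20.8, 16.6 and 18.3 FPKM in DSS 1, 2 and 3, against 24.3, 16.4 and 22.6 FPKM in control 1, 2 and 3 (log2 fold change -0.16, 95% interval -0.60 to 0.27, limma adjusted p = 0.607). Trim14, a member without a RING finger that acts at the adaptor MAVS, averaged 14.7 ± 3.01 FPKM in DSS colon, against 10.9 ± 3.34 FPKM in control colon, and Trim26 averaged 15.2 ± 2.90 FPKM in DSS colon, against 12.4 ± 1.88 FPKM in control colon. Neither passed (limma adjusted p = 0.298 and 0.398), and opposite-strand exons of Nans, at 106.5 to 295 FPKM in DSS colon, against 305.9 to 337.6 FPKM in control samples, overlap Trim14. Trim56, a regulator of the STING pathway, averaged 1.18 ± 0.507 FPKM in DSS colon, against 1.72 ± 0.833 FPKM in control colon, and Trim38 did not reach the testing level, at 0, 1.16 and 0.444 FPKM in DSS 1, 2 and 3, against 0.639, 0.461 and 0.901 FPKM in control 1, 2 and 3. Of the 13 tested genes of the antiviral and interferon-linked class 1 was called higher and 0 lower, 5 had DSS samples above all control samples and the median log2 fold change was 0.29. These are 7.69% called higher, against 6.34% of all tested genes, and 38.5% with every DSS sample above, against 25.6%.

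Trim16 was the member with the largest log2 fold change in size among the 41 tested and the smallest p. It lacks a RING finger, has ligase activity through its B-boxes, and in human cells brings the autophagy machinery to damaged lysosomes together with galectin-3. Trim16, at chromosome 11, 62820231 to 62850808 on the plus strand of GRCm38, had 21.3, 18.8 and 17.7 FPKM in DSS 1, 2 and 3, against 54.5, 35.7 and 38.7 FPKM in control 1, 2 and 3. The DSS samples lay close together and all below the lowest control sample, and control 1 stood highest. Trim16 fell to a mean of 19.3 ± 1.81 FPKM in DSS, against 42.97 ± 10.1 FPKM in control colon. The log2 fold change was -1.10 ± 0.19 SE (limma adjusted p = 0.0158). Without control 1 the log2 fold change was -0.92 and the call was kept. The call was lost without DSS 3 (limma, adjusted p = 0.0628) or control 3 (0.0587), and it held under the 3 other scalings. Of 9 epithelial markers Krt8 and Krt19 fell and 7 did not pass. The log2 fold change was negative for 7 of the 9 and positive for 2, with a median of -0.43. Among those that did not pass, Krt18 stood at -1.45 (limma adjusted p = 0.0555) and Cdh1 at -0.66 (0.0869). The 2 positive ones were Cdx2, at 73.7 ± 45.3 FPKM in DSS colon, against 23.0 ± 12.6 FPKM in control colon, and Cdx1 with a log2 fold change of 0.06. Of 6 absorptive colonocyte markers 5 fell, and Car1, which did not pass, had 5666 ± 4264 FPKM in DSS colon, against 2983 ± 652 FPKM in control colon. With Car1 the list summed to 2398 to 10550 FPKM in DSS colon, against 6375 to 8554 FPKM in control colon. The 9 smooth muscle markers had negative log2 fold changes with a median of -1.12, and Tpm2 alone passed. The part of these cell types in the fall of Trim16 was not tested. Exons of Fbxw10 on the same strand overlap Trim16, and Fbxw10 had at most 0.185 FPKM in DSS colon, against 0.662 FPKM in control samples.

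Trim15, Trim40 and Trim31 lie next to each other with Trim10 and Trim26 in the major histocompatibility region of chromosome 17. Trim15, Trim40 and Trim31 did not pass the test. Trim31, which acts on MAVS and on the NLRP3 inflammasome in mouse, had 68.7, 72.4 and 49.6 FPKM in DSS 1, 2 and 3, against 106.8, 80.6 and 80.5 FPKM in control 1, 2 and 3. All DSS samples lay below all control samples, with a log2 fold change of -0.49 ± 0.20 SE that did not pass (limma adjusted p = 0.155). Trim40, which restrains NF-kB signalling in human gut epithelial cells, had 46.6, 35.2 and 40.03 FPKM in DSS 1, 2 and 3, against 38.5, 11.9 and 19.4 FPKM in control 1, 2 and 3. The DSS samples were the higher ones apart from DSS 2, which lay below control 1 (log2 fold change 0.92 ± 0.38 SE, limma adjusted p = 0.169). Without control 1 Trim40 passed, at a log2 fold change of 1.35 (limma adjusted p = 0.0405), and without control 2 it stood at 0.54 (0.345). Trim15 had 25.5, 31.6 and 30.2 FPKM in DSS 1, 2 and 3, against 61.3, 4.31 and 20.3 FPKM in control 1, 2 and 3. Its control samples enclosed the DSS samples on both sides, and the interval at 95% of the log2 fold change ran from -1.34 to 2.62 (limma adjusted p = 0.653). Trim15, Trim40 and Trim10 had the same order in control colon, control 1 highest and control 2 lowest. Trim10 stood at 1.46, 0.648 and 0.562 FPKM in DSS 1, 2 and 3, against 0.756, 0 and 0.234 FPKM in control 1, 2 and 3, and was not tested.

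**Figure D3:**
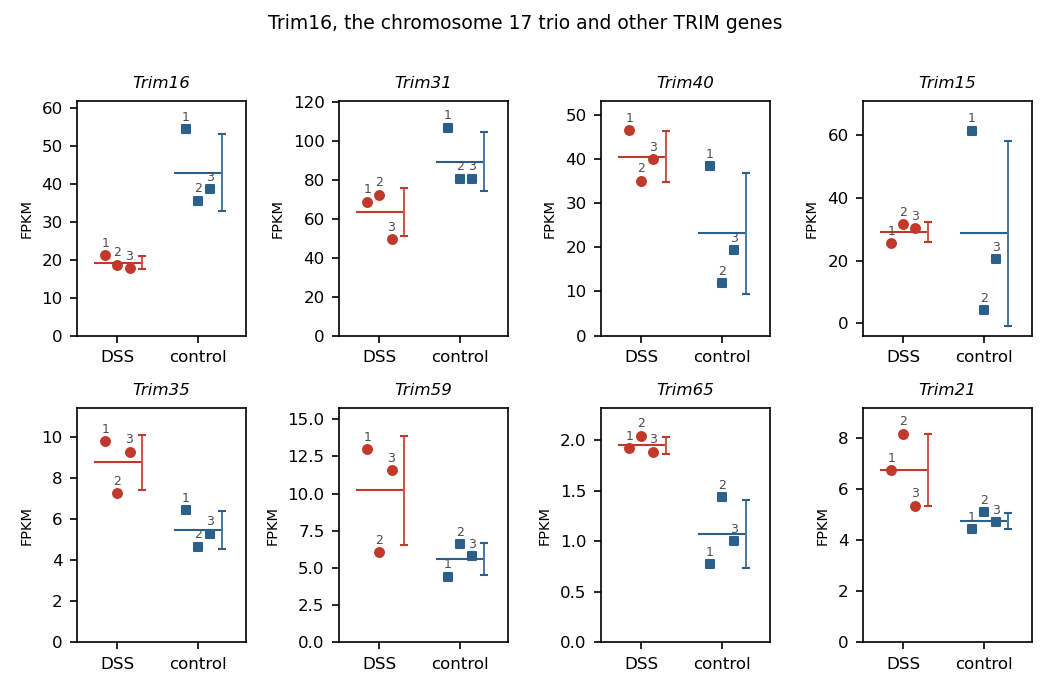
FPKM of 8 TRIM genes, DSS samples as circles at left and control samples as squares at right, numbered by replicate, with the group mean as a line and 1 SD as a bar. Trim16 and Trim31 show DSS samples below all control samples, Trim35, Trim65 and Trim21 above them, Trim59 and Trim40 overlap in part, and the control samples of Trim15 spread from 4.31 to 61.3 FPKM.

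Trim35, Trim59, Trim13 and Trim11 were also higher in DSS colon by their means, without passing the test. Trim35, first described as a growth-suppressing, pro-apoptotic gene of blood cells, had 9.80, 7.26 and 9.30 FPKM in DSS 1, 2 and 3, against 6.46, 4.68 and 5.30 FPKM in control 1, 2 and 3 (log2 fold change 0.59 ± 0.18 SE, limma adjusted p = 0.0877). Its groups did not overlap. Trim59, a membrane-anchored member, had 13.0, 6.08 and 11.6 FPKM in DSS 1, 2 and 3, against 4.42, 6.59 and 5.79 FPKM in control 1, 2 and 3 (log2 fold change 0.72 ± 0.28 SE, limma adjusted p = 0.147). DSS 1 and DSS 3 lay above every control sample and DSS 2 lay among them, and without DSS 2 Trim59 passed at a log2 fold change of 1.02 (limma adjusted p = 0.0321). Trim13, anchored in the endoplasmic reticulum, had 4.91, 5.51 and 5.85 FPKM in DSS 1, 2 and 3, against 4.57, 3.98 and 2.62 FPKM in control 1, 2 and 3 (limma adjusted p = 0.187). Trim11 averaged 10.2 ± 2.26 FPKM in DSS colon, against 7.78 ± 1.24 FPKM in control colon (limma adjusted p = 0.294). Both had groups that did not overlap, and Trim13 shares 1230 bases at 95.9% identity with Gm9359. In all, 8 of the 41 tested TRIM genes had every DSS sample above every control sample and 2 had every DSS sample below, together 24.4%, against 25.6% above, 9.51% below and 35.1% together over all tested genes.

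The chromatin cofactors did not pass the test. Trim28 (KAP1), which KRAB zinc finger proteins bring to DNA to silence transposable elements, had 21.6, 10.8 and 18.1 FPKM in DSS 1, 2 and 3, against 15.3, 20.6 and 20.8 FPKM in control 1, 2 and 3 (log2 fold change -0.20, 95% interval -0.81 to 0.41, limma adjusted p = 0.662). DSS 2 was the lowest of the 6 samples. Trim24 averaged 6.69 ± 0.420 FPKM in DSS colon, against 7.12 ± 0.852 FPKM in control colon, and Trim33, a partner and ligase of Smad proteins, 5.18 ± 0.879 FPKM in DSS colon, against 4.05 ± 0.433 FPKM in control colon (limma adjusted p = 0.794 and 0.338). Trim66 stayed at or below 0.0373 FPKM in every sample. Of 12 partners of Trim28 in heterochromatin, Morc3 was called higher, at 12.8 ± 1.49 FPKM in DSS colon, against 7.16 ± 0.535 FPKM in control colon, and 0 were called lower, 8.33% against 8.9% of all tested genes. The call of Morc3 was kept in 6 of 15 alternatives.

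The remaining classes showed no call. Of the members with NHL repeats, which bind RNA or act as ligases in neurons and muscle, Trim2 averaged 21.9 ± 7.45 FPKM in DSS colon, against 21.5 ± 8.17 FPKM in control colon, Trim3 4.27 ± 2.26 FPKM in DSS colon, against 3.79 ± 0.752 FPKM in control colon, and Trim32 5.56 ± 0.620 FPKM in DSS colon, against 5.45 ± 0.924 FPKM in control colon. Their log2 fold changes lay between 0.03 and 0.05, with 95% intervals of -0.77 to 0.86 for Trim2, -0.80 to 0.87 for Trim3 and -0.38 to 0.44 for Trim32. The sign for Trim2 turned negative under 3 other scalings. Trim36, a microtubule-binding ligase, varied widely among DSS samples, at 4.69, 9.14 and 1.21 FPKM in DSS 1, 2 and 3, against 3.49, 1.87 and 2.80 FPKM in control 1, 2 and 3 (limma adjusted p = 0.61). Trim39, which stabilises the apoptosis protein Moap1, had 3.26, 0.573 and 5.37 FPKM in DSS 1, 2 and 3, against 3.35, 2.59 and 3.42 FPKM in control 1, 2 and 3 (limma adjusted p = 0.79). In both genes the DSS samples enclosed the control samples. Trim8, which takes part in TNF signalling, had overlapping groups, at 8.84 ± 0.754 FPKM in DSS colon, against 8.48 ± 0.429 FPKM in control colon (log2 fold change 0.05, 95% interval -0.29 to 0.39). For 30 of the 41 tested TRIM genes the whole 95% interval lay between -1 and 1 on the log2(FPKM + 1) scale, which compresses changes of genes near 1 FPKM and so does not bound their change in FPKM.

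Of the 26 members below the testing level, 11 were listed at 0 in all 6 samples. These were Trim43b, Trim50, Trim52, Trim54, Trim55, Trim58, Trim60, Trim61, Trim63, Trim71 and Trim75. Trim54, Trim55 and Trim63 encode the MuRF ligases of striated muscle, and Trim71 acts in early embryos and stem cells. Trim72, the membrane-repair protein of striated muscle, was the exception in that class, at 1.37, 1.81 and 2.23 FPKM in DSS 1, 2 and 3, against 0.825, 1.55 and 3.37 FPKM in control 1, 2 and 3. Of 10 skeletal muscle markers Myh1 and Myh4 were at 0 in every sample, and the list summed to 10.8 to 25.1 FPKM in DSS colon, against 16.8 to 27.03 FPKM in control samples. Another 9 members stayed at or below 0.5 FPKM everywhere, and 6 exceeded it in at least 1 sample. Beside Trim10, Trim30b, Trim30e-ps1 and Trim38 these were Trim29 and Trim45. Trim29 had 0.6, 0.364 and 0.659 FPKM in DSS 1, 2 and 3, against 0.543, 0.245 and 0.135 FPKM in control 1, 2 and 3. Trim45 had 0.174, 0.344 and 0.274 FPKM in DSS 1, 2 and 3, against 0.404, 0.601 and 0.733 FPKM in control 1, 2 and 3, groups that did not overlap. With a filter of 0.1 FPKM Trim45 was not called (limma adjusted p = 0.156).

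**Figure D4:**
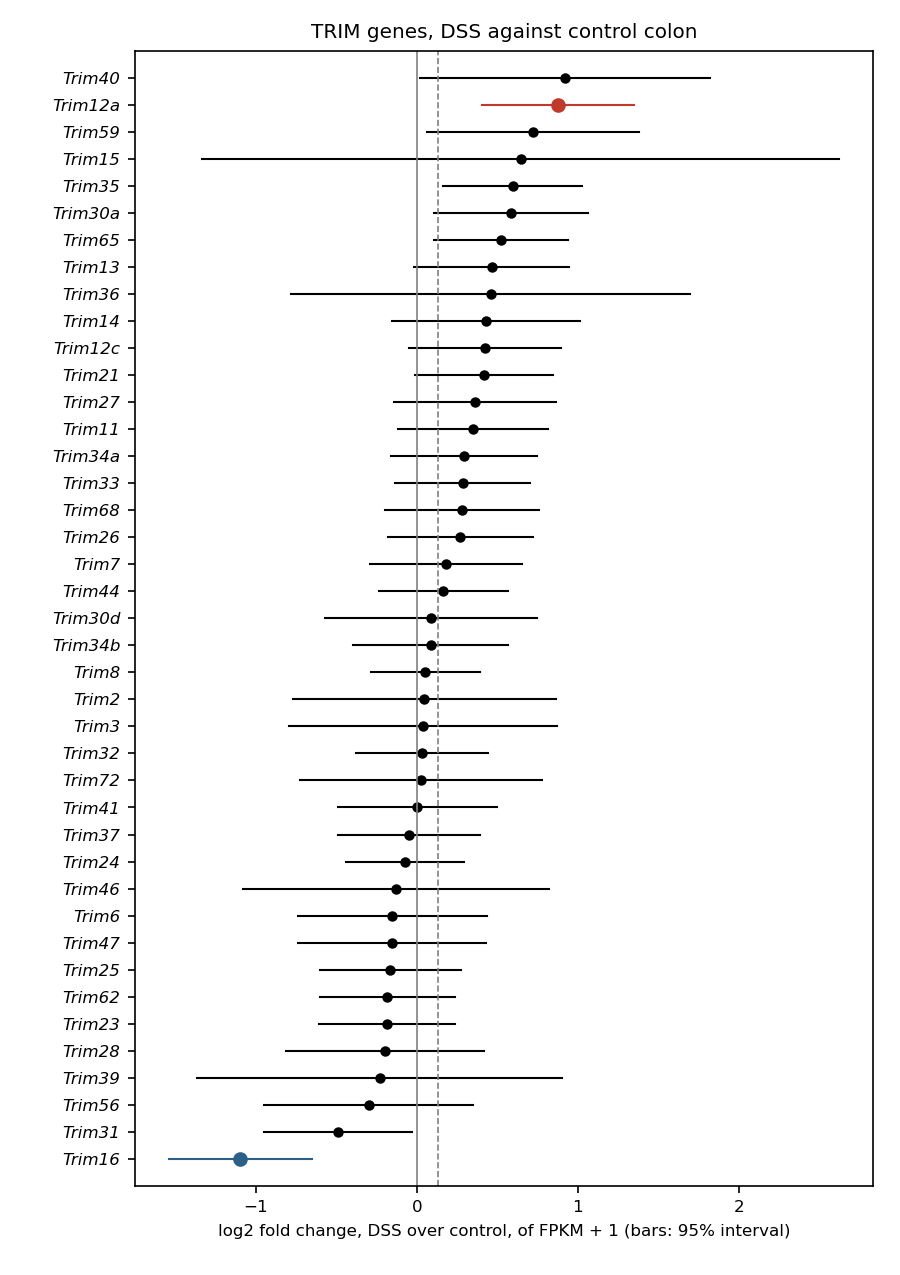
Log2 fold change, DSS over control, of FPKM + 1 for the 41 tested TRIM genes in order of size, with the 95% interval as a bar, zero as a solid line and the median of all tested genes (0.13) as a dashed line. Trim12a (0.88) and Trim16 (-1.10), drawn larger, are the called genes, and Trim15 has the widest interval.

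Of 25 tested interferon-induced genes 10 rose and 1 fell, 44% of them, against 8.9% of all tested genes, with a median log2 fold change of 0.56, against 0.13. Iigp1, an interferon-inducible GTPase, averaged 48.05 ± 4.31 FPKM in DSS colon, against 2.27 ± 0.195 FPKM in control colon. Oas1a, an antiviral oligoadenylate synthase, was the member that fell, to 23.9 ± 5.85 FPKM in DSS, against 43.4 ± 4.86 FPKM in control colon (limma adjusted p = 0.0407). Of 17 tested partners in RNA and DNA sensing Ikbke and Tab2 rose, 11.8% against the 8.9% of all tested genes. Tab2, the adaptor that Trim30a acts on, had 26.2 ± 2.63 FPKM in DSS colon, against 16.6 ± 1.56 FPKM in control colon (limma adjusted p = 0.0441). Of 20 genes of ubiquitin conjugation Usp18, Uba7 and Ube2d1 rose, 15% against that 8.9%. Of 15 alternatives, 8 kept the call of Oas1a, 6 that of Ikbke, 3 that of Tab2 and 1 that of Ube2d1. Ube2d1, a conjugating enzyme used by many RING ligases, had 23.5 ± 1.02 FPKM in DSS colon, against 14.5 ± 2.48 FPKM in control colon (limma adjusted p = 0.0479), and Uba7, the activating enzyme for the ubiquitin-like protein Isg15, had 16.8 ± 0.670 FPKM in DSS colon, against 9.07 ± 0.983 FPKM in control colon (limma adjusted p = 0.0164).

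TRIM genes that carry other names were read as well, 9 in all, of which 4 were tested. Of these 4, 1 was called higher and 0 lower, 25% against 8.9% of all tested genes. Mefv (pyrin, an inflammasome sensor made by myeloid cells) rose, with 1.29, 1.56 and 1.59 FPKM in DSS 1, 2 and 3, against 0.496, 0.15 and 0.315 FPKM in control 1, 2 and 3 (log2 fold change 0.91 ± 0.17 SE, limma adjusted p = 0.021). It passed the filter through the DSS samples alone, and 11 of 15 alternatives kept the call. Pml, the core of nuclear bodies, averaged 3.15 ± 0.513 FPKM in DSS colon, against 2.37 ± 0.561 FPKM in control colon (limma adjusted p = 0.337), and Mid2 9.56 ± 1.87 FPKM in DSS colon, against 7.36 ± 1.18 FPKM in control colon (limma adjusted p = 0.305). Bspry, a B-box and SPRY domain protein, had 92.7, 35.98 and 50.07 FPKM in DSS 1, 2 and 3, against 110.6, 87.1 and 76.4 FPKM in control 1, 2 and 3, groups that overlapped (log2 fold change -0.70 ± 0.33 SE, limma adjusted p = 0.22). As a second family of RING proteins, 82 rows were named Rnf and a number, and 61 of them were tested. Of these 0 were called by limma, 8 had an unadjusted p under 0.05, 13 had every DSS sample above and 4 every DSS sample below the control samples, and the median log2 fold change was 0.16. Groups were thus apart in 27.9% of these genes, against 35.1% of all tested genes, of which 8.9% were called and 28.3% had an unadjusted p under 0.05. The difference between the TRIM and Rnf families was not tested.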

How the data were processed

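RNA of 6 mouse colon samples was sequenced. The labels' protocols name TRIZOL extraction, a poly(A) module and second-strand synthesis of a non-directional kind, so reads were treated as carrying no strand. The values are FPKM per gene as deposited by the authors, per the file headers. The submitters' processing notes list TopHat2 2.1.1 and mm10, and which program computed FPKM is not given in the sources used here. Sample titles gave groups and replicate numbers.

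The 67 members are the rows named Trim and a number. Members, classes, gene lists and motifs were chosen with earlier results of these data known. Expression was compared as log2(FPKM + 1) with limma 3.58.1 (R 4.3.3, trend and robust options, two-sided) among 12348 genes that reached 1 FPKM in 3 or more samples, with Benjamini-Hochberg adjustment at 0.05. This scale understates fold changes of low genes, and a 0 can be a failed estimate. Called genes, the 12 smallest p, the 5 highest in control colon and untested members above 0.5 FPKM were described by sample values, except Trim11 and Trim2, which were given by group means. Values of some other members were added after they had been seen. GENCODE vM21 (GRCm38, the assembly of mm10) gave positions, BLAST+ 2.17.0 gave copies (95% identity over 200 bases), and RefSeq GRCm38.p6 gave promoters. The alternatives were 3 scalings, 2 pseudocounts, 2 filters, plain moderation, a replicate block and leaving out each sample. The fit was tested on simulated data first.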

Additional observations from a re-analysis of the deposited data

How the results depend on the processing

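Of the 15 alternatives, 7 left Trim12a called and 13 left Trim16 called, and neither reversed. The number of TRIM genes called was 2, with 1 higher and 1 lower, and it became 1, with 0 higher, under median-of-ratios, upper-quartile and quantile scaling. With a filter of 0.1 FPKM there were 2 called higher. Leaving out 1 sample gave 0 to 3 TRIM genes called, 0 to 2 of them higher and 0 to 1 lower, with 0 called without DSS 3 or without control 3, 1 without control 2 and 3 without DSS 2. Over all genes the calls were 1165 higher and 606 lower without DSS 1, 314 and 163 without DSS 3, 322 and 136 without control 1, 209 and 79 without control 2, and 213 and 83 without control 3. The pathway lists held 17 called genes, 11 without a filter on low values and 4 to 22 with 1 sample left out. Trim2 reversed to -0.10, -0.0807 and -0.12 (log2) under median-of-ratios, upper-quartile and quantile scaling and ran from -0.27 to 0.31 with 1 sample left out. Trim15 ran from -0.28, without control 2, to 1.49, without control 1. The cause was not tested. With the replicate number as a block, 2 TRIM genes were called and over all genes 640 were higher and 255 lower, in place of 783 and 316. Same-numbered samples deviated together only weakly (correlations 0.082, 0.129 and 0.003), and other-numbered ones had correlations from -0.113 to 0.034. DSS 1 and DSS 2 each correlated best with the control of the same number, and DSS 3 with control 1 (0.034). Whether the numbers pair the samples is therefore not known, and the main fit did not use them as pairs. Under the block Mefv (limma adjusted p = 0.054), Oas1a (0.0628), Tab2 (0.0634), Ikbke (0.0615), Ube2d1 (0.0657) and Morc3 (0.0597) lost their calls, as did the markers Gzmb (0.0614) and Tpm2 (0.0551). Depth is unknown, which limits members near or below 1 FPKM most.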

Other observations

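Control samples spread widely in Trim15 and Trim40 of chromosome 17. Trim15 averaged 29.1 ± 3.21 FPKM in DSS colon, against 28.7 ± 29.4 FPKM in control colon (SD, n = 3 each). Trim40 averaged 40.6 ± 5.76 FPKM in DSS colon, against 23.3 ± 13.7 FPKM in control colon. For their means, the neighbours Trim31 and Trim26 spread less, at 89.3 ± 15.1 and 12.4 ± 1.88 FPKM in control colon. The absorptive colonocyte markers summed to 2398, 10550 and 6434 FPKM in DSS 1, 2 and 3, against 8554, 6448 and 6375 FPKM in control 1, 2 and 3. Their part in the spread was not tested.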
